A study of Mus musculus with 6 samples.

Results

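The 10 aldehyde dehydrogenase genes described here are Aldh3b2, Aldh1a1, Aldh1l1, Aldh2, Aldh3a2, Aldh4a1, Aldh5a1, Aldh6a1, Aldh7a1 and Aldh9a1. They were picked by symbol out of the 23282 rows of the count tables, in which 21 rows carry the symbol of an aldehyde dehydrogenase, so the other 11 genes of the family serve as their nearest relatives. The libraries came from forebrain of wild-type (WT) C57BL/6J male mice, 8 to 10 weeks old, with the olfactory bulbs and cerebellum taken off and the hemispheres parted. Of the 6 libraries, 3 were from mice on a normal chow diet (NCD) and 3 from mice on a high-fat diet (HFD) with 60 kcal% fat, each given for 10 days. RNA was read with a 3′ kit that primes on the poly(A) tail, and the question put to the counts was how much of each enzyme's mRNA differed between the diets.

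Aldehyde dehydrogenases use NAD or NADP to oxidise a reactive aldehyde to its carboxylic acid. Each enzyme has preferred substrates, and in the brain these include the aldehydes left when monoamine oxidases act on dopamine and serotonin, the retinaldehyde that becomes retinoic acid, the semialdehydes of GABA and amino acid breakdown, and fatty aldehydes from membrane lipids. Aldh1l1 is widely used as a marker of astrocytes, and Aldh1a1 marks a subset of midbrain dopamine neurons. In bulk tissue such as this, a smaller number of the cells that express a gene and less RNA in each of them cannot be told apart.

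The family was sorted first by where its reads could come from, because the study counted multiple as well as unique alignments and close copies can then share reads. Positions are those of GENCODE vM21 on GRCm38. Aldh3b2 is on the plus strand of chromosome 19 from 3972328 to 3981646, with 10 exon blocks that hold 2142 bases. Its copy Aldh3b3 ends just before it, from 3958645 to 3972103 on the same strand. The coding sequences of both genes are 1440 bases long and 90.0% identical, with a longest identical run of 255 bases. Against Aldh3b1 the identity was 83.6% and the longest identical run was 87 bases.

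The following coding sequences show where Aldh3b2 can and cannot be told from its copy, which matters for a gene with few reads. The first pair is the last 60 coding bases of each gene with the stop codon, at chr19:3981133-3981192 for Aldh3b2 and chr19:3969888-3969947 for Aldh3b3 (GRCm38, plus strand), and capitals mark the 15 bases of Aldh3b3 that differ from Aldh3b2. The last sequence is a stretch of 75 bases that both genes share without a difference, at chr19:3978435-3978509 in Aldh3b2 and chr19:3964838-3964912 in Aldh3b3.
Aldh3b2 coding end: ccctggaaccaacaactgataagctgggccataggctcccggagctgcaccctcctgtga
Aldh3b3 coding end: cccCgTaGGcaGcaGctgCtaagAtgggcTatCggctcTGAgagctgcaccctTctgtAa
Stretch shared by both: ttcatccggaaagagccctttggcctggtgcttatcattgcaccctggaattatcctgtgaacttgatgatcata

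To put numbers on this for all members, every window of 75 bases in a member's annotated transcripts was looked up in the transcripts of all other genes. Of the 2068 windows of Aldh3b2, 379 or 18.3% also occurred elsewhere, most of them in Aldh3b3. None of the 426 windows that start within the last 500 bases of Aldh3b2, the stretch where 3′ reads are most likely to fall, was found in another gene. The row of Aldh3b3 held no count in any library. Aldh1a1 shared 1.01% of its windows, all with Aldh1a7, which had between 2 and 9 counts per library.

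Overlapping genes were the other source of shared sequence. Aldh4a1, on chromosome 4 from 139622866 to 139649690, shares 1595 exon bases, 32.5% of its exon length, with the same-strand gene Gm21969, and 26.3% of its windows in the last 500 bases occur there too. Aldh6a1 shares 18.6% of its exon length with Bbof1, Aldh5a1 shares 14.1% with the antisense RNA 4932702P03Rik, Aldh1l1 shares 11.1% with the antisense RNA Gm15756 and Aldh7a1 shares 5.79% with Phax, all on the opposite strand. Of the windows in the last 500 bases, 0% of Aldh5a1, 3.99% of Aldh7a1, 6.11% of Aldh6a1 and 12.6% of Aldh1l1 occurred in another gene. The use of strand in the counting is not given in the sources used here, so reads of these pairs may not have been separated. Aldh3a2 and Aldh9a1 shared no exon base with another gene and no window with another transcript.

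**Figure D1:**
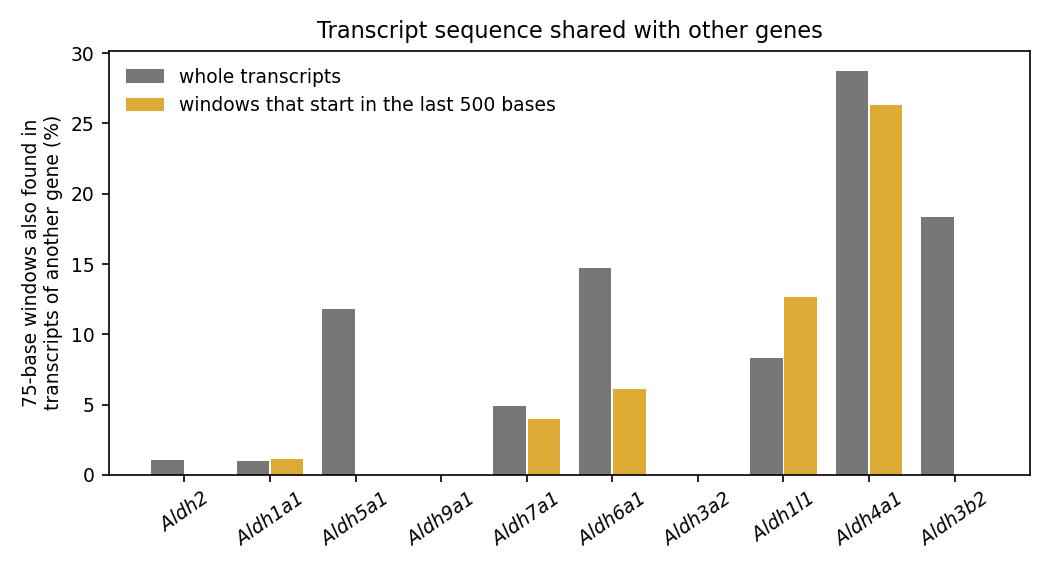
Share of the 75-base windows in each member's annotated transcripts that also occur in transcripts of another gene (y axis, percent), for whole transcripts (grey) and for windows that start in the last 500 bases (yellow). Aldh3b2 has 18.3% over its whole transcripts and 0 near its 3′ end, while Aldh4a1 has 28.7% and 26.3%.

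The total count was between 6842785 and 9689372 per library, and levels are given as CPM, each count relative to the library total after scaling with edgeR's TMM method. A count of 3, taken as the floor, was worth between 0.316 and 0.432 CPM, which covers counting error only. All 10 members passed the count filter that left 13771 genes, though Aldh3b2 had fewer than 10 counts in HFD replicate 3. The astrocyte markers summed to between 7275 and 7909 CPM in all 6 libraries and the neuron markers to between 6651 and 7065 CPM, with 12 of 12 and 10 of 10 genes tested and none called. HFD replicate 3 stood apart, since 8 pituitary genes summed to 1277 CPM there against 4.75 to 13.6 CPM in the other libraries. Ttr is on both the liver and the choroid plexus list, and its log2 fold change was 0.005 (unadjusted edgeR p 0.958). The 13 liver genes other than Ttr summed to between 12.8 and 67.2 CPM in the NCD libraries. In the HFD libraries they summed to between 7.15 and 16.1 CPM, a range that holds NCD replicate 3 at 12.8 CPM. Of these 13 genes 6 were tested. All 6 were called lower at an unadjusted edgeR p under 0.05, against 1.98% of all genes tested. With Ttr, 6 of 7 tested were called lower. Blood genes summed to between 421.4 and 519.2 CPM on the NCD and between 543.8 and 824.5 CPM on the HFD. By the same threshold 4 of 5 were called higher, against 1.71% of all genes tested. The part of these lists in the members' values was not tested. The labels do not say that each library is a separate mouse, so p-values measure the spread between these libraries, which may be technical.

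Of the 10 enzymes, only Aldh3b2 passed the unadjusted threshold between the diets, and it was lower on the HFD. The other 9 stayed between -0.18 and 0.22 in log2 fold change, HFD minus NCD. In edgeR's quasi-likelihood test, 1 of 10 members had an unadjusted p under 0.05, against 3.68% of all genes tested in either direction and 1.98% lower on the HFD. With a fold of at least 1.5 as well, the count was still 1 of 10, against 1.28% of all genes in either direction and 0.748% lower on the HFD. Without the count filter it was 1 of 10 again, beside 4.76% of all genes with a count, or 2.09% with the fold as well. After Benjamini-Hochberg adjustment over the 13771 genes, 0 members and 0 genes had an adjusted p under 0.05 in edgeR, where 507 genes had an unadjusted p under 0.05, while DESeq2 gave an adjusted p under 0.05 to 0 members and to 2 genes, 0.0145% of those tested. The median log2 fold change of the members was -0.00364, beside -0.00245 over all genes tested, with 5 members above 0 and 5 below.

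**Figure D2:**
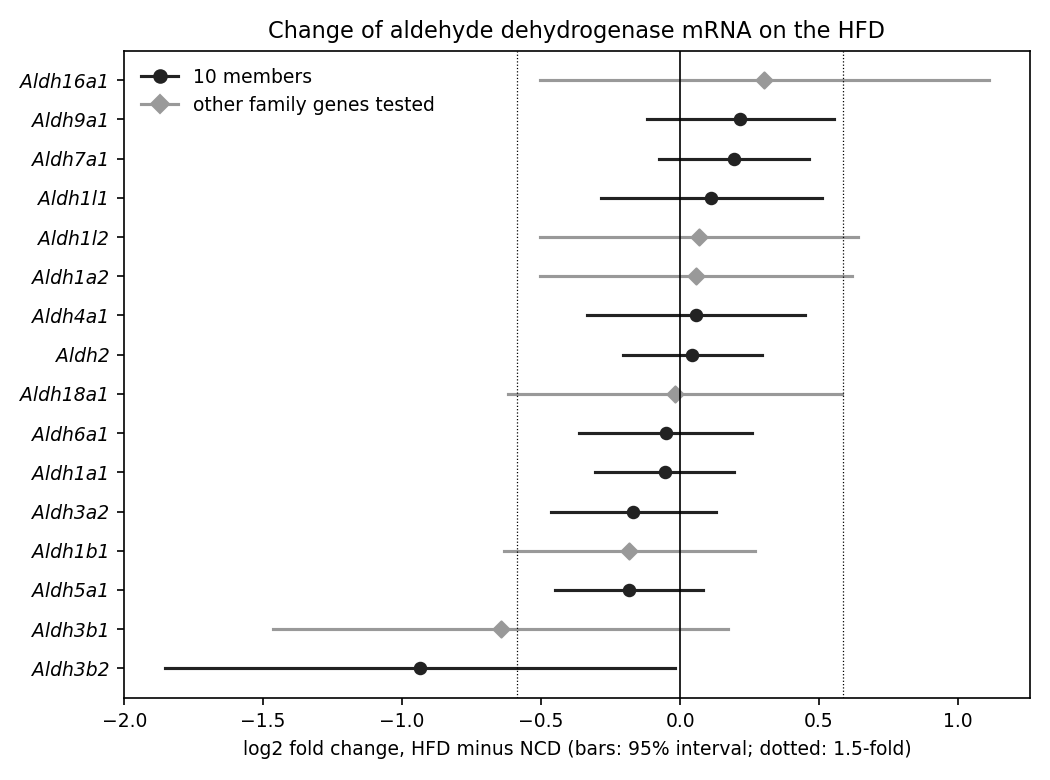
Log2 fold change between the diets, HFD minus NCD (x axis), for the 10 members (black circles) and the 6 other aldehyde dehydrogenases that passed the count filter (grey diamonds), with 95% intervals as bars and dotted lines at a 1.5-fold change. Aldh3b2 sits lowest at -0.94 and its interval is the only one of the 16 that leaves out 0.

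Aldh3b2 belongs to the enzymes that act on long-chain fatty aldehydes, and its protein is known from lipid droplets. It had 20, 23 and 29 counts in the NCD libraries and 10, 18 and 5 counts in the HFD libraries. On the CPM scale these were 2.47, 2.48 and 3.06 for the NCD libraries and 1.44, 1.97 and 0.687 for the HFD libraries. All HFD libraries lay below all NCD libraries, with HFD replicate 3 the lowest and HFD replicate 2 the closest to the NCD. NCD libraries had a mean of 2.67 ± 0.335 CPM and HFD libraries one of 1.37 ± 0.643 CPM (SD, n = 3 each). On the log2 scale it changed by -0.94 (standard error, SE, 0.43, 95% interval -1.85 to -0.02), which is 0.523-fold with an interval from 0.277 to 0.988. The unadjusted p of edgeR's quasi-likelihood test was 0.0462 and the adjusted p was 0.979, and each edgeR p given alone for a gene is likewise unadjusted. An exact permutation test of the CPM gave a two-sided p of 0.1, below which 3 libraries against 3 cannot go. HFD libraries lay wholly below the NCD libraries in 4.49% of all genes tested, and the diets were separate in either direction in 8.81%.

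The depth behind this gene was low and so was the firmness of the call. Its mean count of 17.5 per library compares with a median of 182.5 over the genes tested, and 7.15% of those genes had a lower mean count. DESeq2 gave a log2 fold change of -0.95 with an unadjusted p of 0.066, so that 0 of 10 members passed there, against 2.72% of all genes. Leaving out a library moved the estimate to between -1.32 and -0.63, and the unadjusted p rose to 0.0678 without NCD replicate 1, 0.069 without NCD replicate 2, 0.12 without NCD replicate 3, 0.0869 without HFD replicate 1 and 0.181 without HFD replicate 3. Only without HFD replicate 2 did it stay under 0.05, at 0.0267. The study singled out this gene from these same libraries, so its value is not independent evidence of a change.

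**Figure D3:**
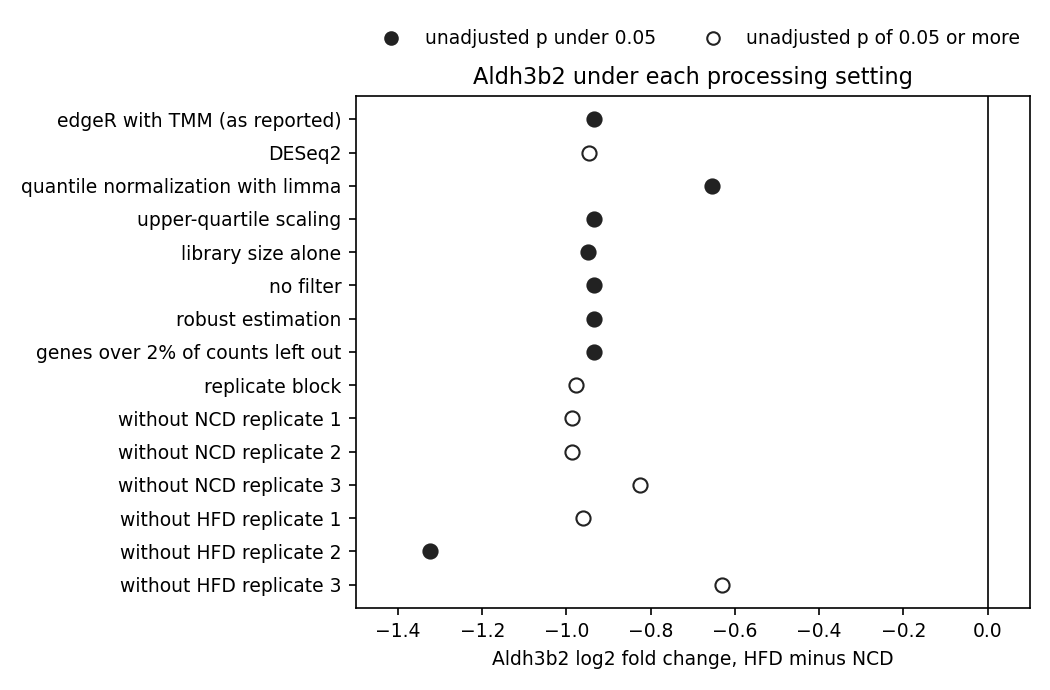
Aldh3b2 log2 fold change, HFD minus NCD (x axis), as reported and under each alternative that could be fitted, with filled points where the unadjusted p was under 0.05 and open points where it was not. Every point lies below 0, from -1.32 without HFD replicate 2 to -0.63 without HFD replicate 3, and 7 of the 14 alternatives are open.

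Aldh3a2, the fatty aldehyde dehydrogenase whose loss in people causes Sjögren-Larsson syndrome, handles long-chain aldehydes from sphingolipid and ether lipid breakdown. It lies on chromosome 11 from 61223417 to 61267464. Its level was 28.6, 25.5 and 23.1 CPM on the NCD and 21.6, 24.2 and 22.7 CPM on the HFD. The groups overlapped, as NCD replicate 3 lay within the HFD range, and the log2 difference came to -0.17 (SE 0.14, edgeR p 0.245). Of the 14 other genes tested for fatty and sphingolipid aldehydes, such as the sphingosine phosphate lyase Sgpl1, 0 had an unadjusted p under 0.05, and their median log2 fold change was 0.00378.

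Aldh2 is the mitochondrial enzyme best known for clearing acetaldehyde after alcohol, and it also oxidises the aldehyde of dopamine. It was the highest member and lies on chromosome 5 from 121566027 to 121593824. The NCD libraries had 83.9, 89.5 and 89.7 CPM and the HFD libraries 102.8, 92.7 and 76.0 CPM. The HFD libraries thus held both the highest and the lowest value, and the means of 87.7 ± 3.27 and 90.5 ± 13.5 CPM (SD, n = 3 each) differed by less than the spread on the HFD. The 95% interval of the fold change, HFD over NCD, ran from 0.868 to 1.23.

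Aldh1a1 is a cytosolic retinaldehyde dehydrogenase that makes retinoic acid, and it shares the dopamine aldehyde as a substrate. It lies on chromosome 19 from 20492715 to 20643465. It had 43.8, 47.0 and 45.9 CPM on the NCD and 47.8, 41.6 and 42.3 CPM on the HFD. HFD replicate 1 was the highest of all 6 and the other HFD libraries were the lowest, so the groups overlapped. The log2 difference came to -0.06 (SE 0.12, edgeR p 0.644). Of the 16 retinoic acid pathway genes tested, among them receptors, binding proteins and the retinoic acid hydroxylases of the Cyp26 family, 0 passed the unadjusted threshold and the median log2 fold change was -0.03.

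Genes that make, move or clear monoamines and their aldehydes were the list with most calls among the 8 pathway lists. Of 13 genes listed, 12 were tested, and 3 were lower at an unadjusted p under 0.05 in edgeR against 1.98% of all genes, with 0 higher and 0 at an adjusted p under 0.05. The median log2 fold change of the list was -0.23. Gch1, which starts the synthesis of the tetrahydrobiopterin that monoamine synthesis needs, had 27, 37 and 31 counts in the NCD libraries and 12, 14 and 4 counts in the HFD libraries. The diets were separate, and the log2 change of -1.46 (SE 0.42, unadjusted edgeR p 0.00318, adjusted p 0.979) kept an unadjusted p under 0.05 in every alternative that fitted the gene. The study singled out Gch1 from these libraries as well, so the count of this list is not independent of that choice.

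The other calls in this list were for Th and Slc6a4, and in both the diets overlapped. Th, the tyrosine hydroxylase that makes the dopamine precursor, had 100, 189 and 145 counts in NCD libraries and 60, 128 and 26 counts in HFD libraries. HFD replicate 3 was far the lowest, and HFD replicate 2 lay above NCD replicate 1. It changed by -0.85 on the log2 scale (SE 0.32, edgeR p 0.016), and this p was 0.0842 without NCD replicate 2, 0.0567 without HFD replicate 3 and 0.122 in DESeq2. The estimate itself was -0.48 without HFD replicate 3 and -1.40 without HFD replicate 2. Slc6a4, the serotonin transporter, had 11, 36 and 54 counts in NCD libraries and 15, 3 and 1 counts in HFD libraries. HFD replicate 1 lay above NCD replicate 1, and the log2 difference came to -2.13 (SE 0.67, edgeR p 0.00555), with a p of 0.0685 in DESeq2. The estimate for Slc6a4 was -3.85 without HFD replicate 1 and between -2.50 and -1.65 without any other library. The 10 markers of midbrain dopamine neurons, of which Th is one, summed to 222.6 to 267.7 CPM on the NCD, to 235.2 and 241.8 CPM in HFD replicates 1 and 2 and to 173.8 CPM in HFD replicate 3. Of these markers 8 were tested, with log2 fold changes from -1.42 to -0.02 and a median of -0.31. Among them 2 were called lower, against 1.98% of all genes tested. They were Th and the transcription factor gene Foxa2 (-1.42, unadjusted edgeR p 0.043). Foxa2 had only 12, 14 and 17 counts in NCD libraries and 4, 10 and 0 counts in HFD libraries. It passed the count filter through its NCD libraries alone, so its call is not set against a like share. The study named Foxa2 from these libraries as well, and Th was already counted in the monoamine list. The count of these markers is therefore not independent of those choices. The part of midbrain tissue in these values was not tested.

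Aldh5a1 is the succinic semialdehyde dehydrogenase that closes the GABA shunt into the citric acid cycle. It lies on chromosome 13 from 24907579 to 24937661. It had 46.7, 42.2 and 49.9 CPM on the NCD and 41.8, 44.2 and 36.2 CPM on the HFD. Although HFD replicate 3 was the lowest and NCD replicate 3 the highest, the groups overlapped through NCD replicate 2. The log2 difference came to -0.18 (SE 0.13, edgeR p 0.165), and -0.11 without HFD replicate 3. All 12 genes listed for the shunt were tested, from the glutamate decarboxylases to the GABA transporters, and 0 passed the unadjusted threshold. Their summed level was 1490 CPM in HFD replicate 3 and between 1768 and 1847 CPM in the other libraries.

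Aldh4a1, which turns glutamate semialdehyde into glutamate at the end of proline breakdown, had 11.7, 12.6 and 12.3 CPM on the NCD and 13.5, 10.3 and 14.6 CPM on the HFD. The NCD libraries lay close together inside the range of the HFD libraries. The log2 difference was 0.06 (SE 0.18), and -0.050 without HFD replicate 3. Aldh7a1, the aminoadipic semialdehyde dehydrogenase of lysine breakdown, behind pyridoxine-dependent epilepsy in people, lies on chromosome 18 from 56509687 to 56572951. It had 28.9, 31.7 and 27.2 CPM on the NCD and 32.5, 34.9 and 33.0 CPM on the HFD. This was the only member with all HFD libraries above all NCD libraries, a separation that 4.31% of all genes tested showed, and the exact permutation p was 0.1. The difference was small, at a log2 difference of 0.19 (SE 0.13, 95% interval -0.08 to 0.46, edgeR p 0.146), and it stayed between 0.14 and 0.26 when any library was left out. Of 11 listed genes of proline and lysine breakdown, 8 were tested and 0 had an unadjusted p under 0.05.

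Aldh6a1 is the methylmalonate semialdehyde dehydrogenase of valine and pyrimidine breakdown, on chromosome 12 from 84430717 to 84451004. It had 29.8, 31.6 and 26.2 CPM on the NCD and 26.3, 33.3 and 24.5 CPM on the HFD. HFD replicate 2 was the highest and HFD replicate 3 the lowest of all, so the diets overlapped over the whole NCD range, and the log2 difference came to -0.05 (SE 0.15), or 0.039 without HFD replicate 3. Among the 17 genes of valine breakdown tested, 1 passed the unadjusted threshold in edgeR. Over all genes tested the share was 3.68% in either direction and 1.71% higher on the HFD. It was Mcee, the methylmalonyl-CoA epimerase that acts further down the same route, with a mean of 50.6 ± 0.189 CPM for NCD libraries and 60.8 ± 1.35 CPM for HFD libraries (SD, n = 3 each). Mcee changed on the log2 scale by 0.27 (SE 0.11, edgeR p 0.0259, adjusted p 0.979), and the unadjusted p was 0.0641 without NCD replicate 1, 0.0638 without NCD replicate 2, 0.0606 without HFD replicate 1 and 0.0521 without HFD replicate 2.

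Aldh1l1, the formyltetrahydrofolate dehydrogenase that takes one-carbon units out of the folate pool, lies on chromosome 6 from 90486427 to 90600203. It had 10.9, 12.9 and 15.5 CPM on the NCD and 16.1, 14.5 and 11.96 CPM on the HFD. Both diets covered nearly the same range, and the log2 difference came to 0.11 (SE 0.19, edgeR p 0.555). The sign of this estimate turned without NCD replicate 1. Of 16 folate one-carbon genes listed, 14 were tested and 0 passed the unadjusted threshold, with a median log2 fold change of 0.05.

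Aldh9a1 oxidises the trimethylaminobutyraldehyde that becomes a precursor of carnitine, and lies on chromosome 1 from 167349991 to 167368532. It had 18.4, 19.6 and 24.0 CPM on the NCD and 28.4, 23.0 and 21.0 CPM on the HFD. HFD replicate 1 was the highest, and the other HFD libraries lay inside the NCD range. The log2 difference came to 0.22 (SE 0.16, edgeR p 0.191), and it moved to 0.30 without HFD replicate 3, 0.34 without NCD replicate 3 and 0.089 without HFD replicate 1. Of 11 genes of carnitine and betaine synthesis and transport, 9 were tested and 0 passed the unadjusted threshold.

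**Figure D4:**
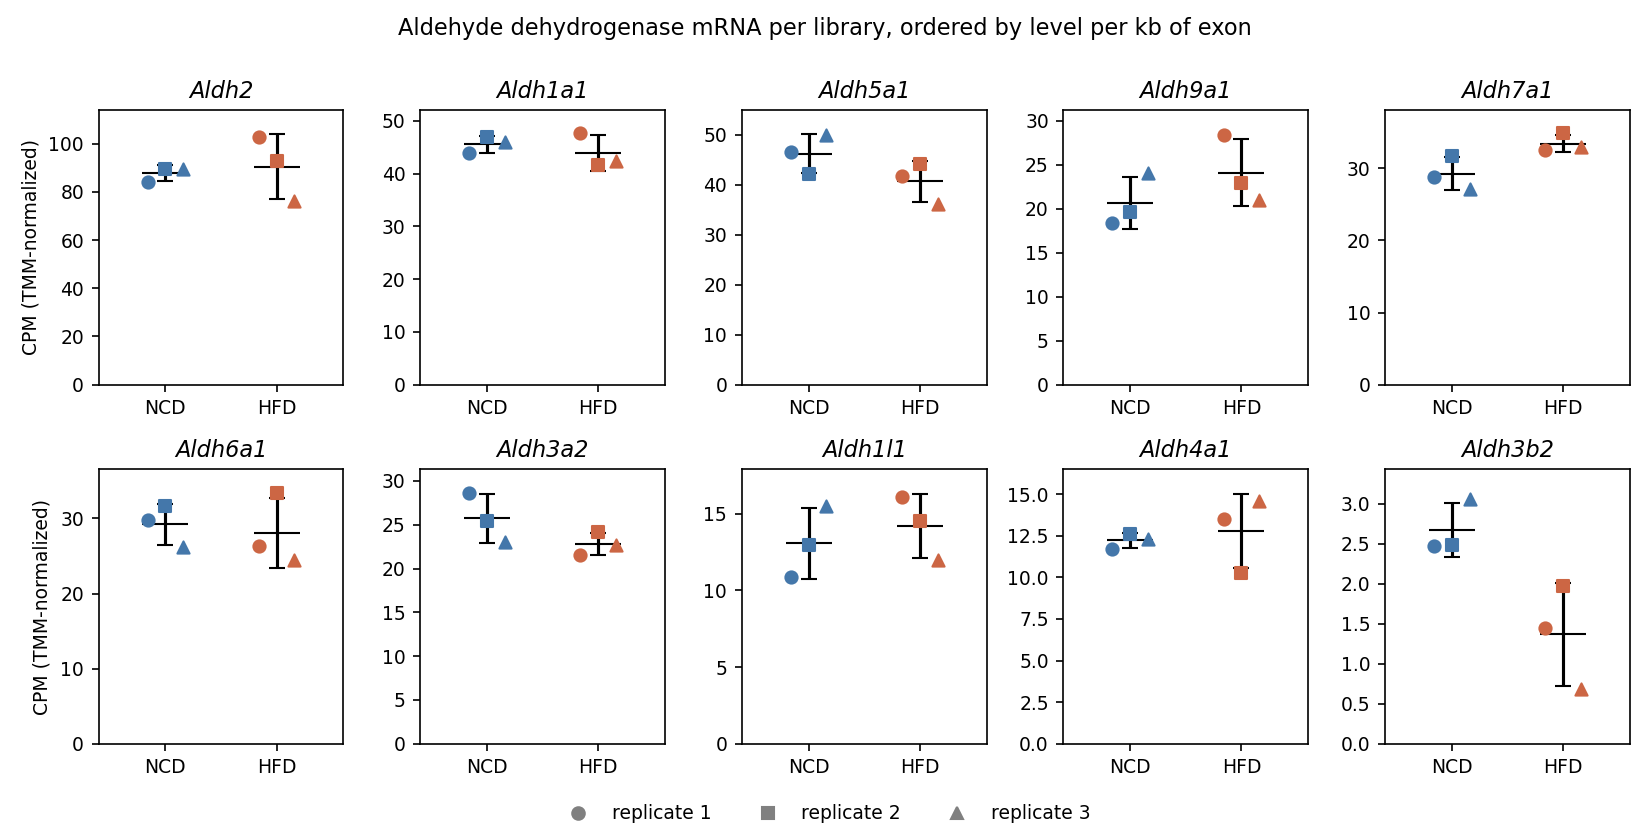
TMM-normalized CPM of the 10 members in each library (y axes from 0, one scale per gene), by diet (x axis), with circles, squares and triangles for replicates 1, 2 and 3 and with bars for the mean and SD of 3 libraries. The diets separate for Aldh3b2, from 2.47 to 3.06 CPM on the NCD against 0.687 to 1.97 CPM on the HFD, and narrowly for Aldh7a1, and they overlap for the other 8 members.

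For the 9 members other than Aldh3b2, the unadjusted p of edgeR lay between 0.146 and 0.761, with standard errors between 0.118 and 0.187. These intervals bound how much could have been missed. Across the 9 members, the lowest 95% bound of a fold change was 0.724 and the highest was 1.47. The members together summed to 305.1, 315.2 and 316.9 CPM in the NCD libraries and to 332.2, 320.5 and 282.9 CPM in the HFD libraries. HFD replicate 1 had the highest sum and the highest value of 4 members, and HFD replicate 3 had the lowest sum and the lowest value of 4 members, so the spread between HFD libraries was wider than the gap between the diets.

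The levels of the genes were compared per kb of exon. Aldh2 was highest with a median over the 6 libraries of 17.5 CPM per kb (range 14.8 to 20.1), and no library of Aldh1a1, the next in order, reached it at 8.43 to 9.68 CPM per kb. From Aldh1a1 the order went on through Aldh5a1 with a median of 7.64, Aldh9a1 with 6.5, Aldh7a1 with 6.2, Aldh6a1 with 4.85 and Aldh3a2 with 4.2 CPM per kb. Each of these overlapped its neighbour in range over the 6 libraries. The ranges pool the libraries, and neighbours were not compared within each library, so overlap does not mean equal levels. Aldh1a1 lay above every library of Aldh9a1 and of the genes after it. Aldh1l1 and Aldh4a1 formed a lower and again overlapping pair at 3.04 and 2.54 CPM per kb. Aldh3b2 came last with 1.04 CPM per kb (range 0.321 to 1.43), below every library of Aldh4a1. In 3′ libraries the reads of a transcript do not grow with its length. Without the division by length Aldh7a1 moved from rank 5 to 4, Aldh6a1 to 5, Aldh3a2 to 6 and Aldh9a1 to 7, while the other 6 kept their rank. In plain CPM the lowest library of Aldh5a1, at 36.2, lay above the highest of Aldh7a1, at 34.9. Aldh6a1, Aldh3a2 and Aldh9a1 also stayed below every library of Aldh5a1. The overlap of Aldh5a1 with Aldh9a1 per kb was thus absent on that scale.

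**Figure D5:**
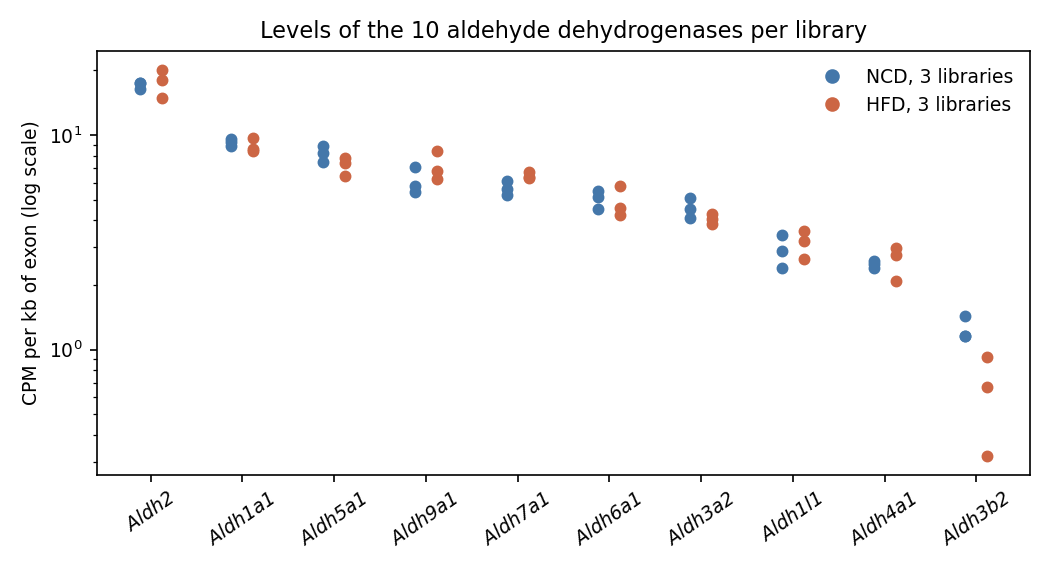
Level of each member in CPM per kb of exon (y axis, log scale), for the 3 NCD (blue) and 3 HFD libraries (orange), ordered by the median over all 6. Aldh2, with a median of 17.5, stands above the rest and Aldh3b2, with a median of 1.04, below them.

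Among the other 11 aldehyde dehydrogenases, 6 passed the count filter, 4 had counts under it and 1, Aldh3b3, had none. None of the 6 had an unadjusted p under 0.05 in edgeR, and their log2 fold changes ran from -0.64 to 0.30 with 3 above and 3 below 0. Aldh3b1, the closest tested relative of Aldh3b2 and likewise an enzyme of fatty aldehydes, had 38, 38 and 19 counts in NCD libraries and 16, 18 and 19 counts in HFD libraries. NCD replicates 1 and 2 were high and NCD replicate 3 lay with the HFD libraries. Its log2 difference was -0.64 (SE 0.39, edgeR p 0.114), and -0.94 with a p of 0.0202 without NCD replicate 3. The difference between Aldh3b1 and Aldh3b2 in their response was not tested.

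The other 5 genes that passed the filter had no call either. The retinaldehyde dehydrogenase Aldh1a2 had 36 to 48 counts on the NCD and 35 to 43 on the HFD, with a log2 fold change of 0.06. Aldh1b1, a mitochondrial relative of Aldh2, had 99 to 135 counts on the NCD and 58 to 127 on the HFD, with a log2 fold change of -0.18. Aldh1l2, the mitochondrial counterpart of Aldh1l1, had 37 to 54 and 36 to 53 counts, with a log2 fold change of 0.07. For all 3 the diets overlapped. Aldh18a1, which makes the proline precursor that Aldh4a1 later removes, had a log2 fold change of -0.02, and Aldh16a1 one of 0.30. Under the filter, Aldh3a1 had 11, 15 and 7 counts in NCD libraries and 7, 1 and 7 counts in HFD libraries. Aldh1a3 had between 0 and 5 counts and Aldh1a7 between 2 and 9 counts per library. Aldh8a1, an enzyme of tryptophan breakdown, had 2, 3 and 3 counts on the NCD and 0 in each HFD library, all at or under the floor of 3 counts, so no fold is given. The HFD libraries all lay below the NCD libraries, but the share of such separations among genes under the filter was not computed. Without the count filter, edgeR gave Aldh8a1 an unadjusted p of 0.0385 and an adjusted p of 0.941. In that fit 4.76% of all genes with a count had an unadjusted p under 0.05. With counts at the floor, no difference is read from these values.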

How the data were processed

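The authors made 3′ mRNA libraries with the QuantSeq kit, mapped adaptor-trimmed reads on mm10 using Bowtie2, and counted unique and multiple alignments per gene with bedtools coverage, and they deposited these whole-number counts without normalization. Tool versions, the annotation and the use of strand are not given in the sources used here. Samples were grouped by the diet in their labels. The members and all gene lists were chosen with earlier results of these data known.

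Counts were fitted in R 4.3.3 with edgeR 4.0.16 (TMM, filterByExpr with min.count 10 and min.total.count 15, glmQLFit and glmQLFTest, no covariate) over 13771 genes, with Benjamini-Hochberg adjustment over all of them. Genes under the filter are given by their counts, with a p from the same fit without the filter where one is printed. The common biological coefficient of variation was 0.126. Between libraries of one diet, chi-square per degree of freedom ran from 3.55 to 16.7, above sampling noise, and each library was kept. Totals per library ran from 6842785 to 9689372 counts. A floor of 3 counts covers counting error only. The fits were tested on simulated data.

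All 10 members and all other aldehyde dehydrogenases are named, and of each pathway list only genes with an unadjusted p under 0.05 are given with values. Genes with overlapping exons or close sequence were named for that reason. Alternatives were DESeq2 1.42.0, quantile normalization of log2(CPM + 1) with limma 3.58.1, library size alone, upper-quartile scaling, all genes with a count unfiltered, a minimum of 10 counts in every library, robust estimation, removal of genes over 2% of counts, the replicate number as a block, and omission of each library in turn. Exon lengths, overlaps and 75-base windows came from GENCODE vM21 on GRCm38 with Python 3.11.15, and coding sequences were aligned with Biopython 1.88. Exact permutation tests took every split of the libraries with numpy 2.4.6, and plots came from matplotlib 3.10.9.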

Additional observations from a re-analysis of the deposited data

How the results depend on the processing

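The count of members with an unadjusted p under 0.05, 1 as reported and Aldh3b2 alone, was 0 in DESeq2 and 0 with at least 10 counts in every library, where Aldh3b2 was not among the genes fitted, and the same held with a fold of at least 1.5. It was 1 under the other scalings, without a filter, with robust estimation and without genes over 2% of counts. Leaving out a library gave 0 to 1, with 1 only without HFD replicate 2, and Aldh3b2 log2 fold changes between -1.32 and -0.63. The adjusted p of Aldh3b2 lay between 0.839 and 0.9999 over the 14 alternatives that could be fitted, and 0 members had an adjusted p under 0.05 in any. The median member change of -0.00364 stayed between -0.03 and 0.04, on either side of 0. The causes were not tested.

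Same-numbered libraries of the diets did not deviate together across genes, with correlations of -0.0295, 0.0515 and -0.0574. In both diets, however, replicate 3 lay furthest from the others. Chi-square per degree of freedom was 9.72 and 13.5 for its NCD pairs and 16.7 and 14.8 for its HFD pairs. Replicates 1 and 2 gave 3.55 on the NCD and 3.93 on the HFD. Whether libraries of the same number were handled together is not given in the labels and was not tested. With the replicate number as a block, the count of members called was 0, and Aldh3b2 had a log2 fold change of -0.98 with an unadjusted p in edgeR of 0.0589. Genes with an unadjusted p under 0.05 went from 507 to 371. Of the 3 same-number pairs, 1 correlated best with its own number.

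Several estimates, among them the 0.30 of Aldh16a1, turned sign when a library was left out. The log2 fold change then ran from -0.00141 to 0.25 for Aldh1l1, from -0.054 to 0.15 for Aldh2, from -0.050 to 0.20 for Aldh4a1, from -0.20 to 0.039 for Aldh6a1, from -0.022 to 0.11 for Aldh1a2, from -0.40 to 0.000974 for Aldh1b1, from -0.10 to 0.17 for Aldh1l2, from -0.071 to 0.53 for Aldh16a1 and from -0.30 to 0.16 for Aldh18a1. Aldh3b2 had the fewest counts of the 10 members, and its interval from 0.277-fold to 0.988-fold holds a small change as well as a large one.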
